A study of Mus musculus with 2 samples.

Results

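A set of 47 genes of the cell division cycle was examined for binding of MEF2A, a MADS-box transcription factor that recognises an AT-rich DNA element. They were grouped by function: 21 genes of DNA replication, 12 genes of mitosis and 14 genes of cell cycle control. This makes 47 of the 21486 protein-coding mouse genes with a usable transcription start site (TSS). The genes were chosen with earlier results of these data known, so the list may not be independent of their binding. A gene was counted when the summit of a MEF2A peak lay within 10 kb of its TSS, and separately when it lay within 1 kb. The TSS is the outermost end of the RefSeq gene on mm10, and positive distances run in the direction of transcription.

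Binding was measured by chromatin immunoprecipitation and sequencing in CH12.LX, a mouse B-cell lymphoma line derived from strain B10.H-2aH-4bp/Wts. The series holds 1 group of 2 biological replicates, both taken with an antibody to MEF2A from separate biosamples of the 1 line; the labels name no treatment. It has no contrast between conditions, and the control library was not analysed here. What was deposited is peak lists, so read depth is unknown and RNA levels of these genes, or of B cell markers, were not part of the data.

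The main list was the authors' optimal set from the irreproducible discovery rate (IDR) procedure, which scores how alike peaks rank between lists. It held 31489 peaks on the assembled chromosomes of mm10. Their signal, the authors' own strength value per peak, ranged from 6.41 to 535 with a median of 34.9. It serves here only to rank peaks within a list, where rank 1 is the strongest. Both replicates and their pool also have relaxed lists of 300000 intervals that include background, which cover 106 Mb of the genome in replicate 1 and 102 Mb in replicate 2. A separate list on mm9, made from both replicates, held 16839 peaks.

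Cells copy their genome once per division. The origin recognition complex, Cdc6 and Cdt1 load the MCM helicase on DNA before S phase, geminin blocks reloading, and the polymerases, their sliding clamp and clamp loader then copy both strands from nucleotides that ribonucleotide reductase supplies. Cyclin D with CDK4 or CDK6, and then cyclin E with CDK2, phosphorylate the RB protein, which releases E2F factors to activate replication genes. Mitotic genes such as cyclin B and CDK1 peak later, and their promoters are known for a short element called the cell cycle genes homology region (CHR) beside CCAAT boxes bound by NF-Y. In B cells MEF2 factors, above all MEF2C, are known for a part in proliferation after antigen receptor stimulation.

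In the optimal set MEF2A peaks lay near most genes of replication and control and near 6 of 12 genes of mitosis. Within 10 kb of the TSS, 37 of the 47 genes had a peak (78.7%, 95% Wilson interval 65.1 to 88.0), where 42.7% of all protein-coding genes did. By role the counts were 17 of 21 for replication (81.0%, 60.0 to 92.3), 6 of 12 for mitosis (50%, 25.4 to 74.6) and 14 of 14 for control (100%, 78.5 to 100). The interval of the mitosis share contains the share of all genes, and those of the other roles lie above it. These intervals cover counting error over genes only, and neighbouring genes can share a peak. The order of the roles was not tested and changed with the list: in replicate 1 alone mitosis stood at 10 of 12 (83.3%) and replication at 15 of 21 (71.4%), and on mm9 at 5 of 12 (41.7%) and 9 of 21 (42.9%).

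Within 1 kb of the TSS the order of the roles changed. A summit lay that close for 26 of the 47 genes (55.3%, interval 41.2 to 68.6), against 28.4% of all genes. It did so for 14 of 21 replication genes and 6 of 12 mitosis genes, but only 6 of 14 control genes. Thus every mitosis gene with a peak had one at its promoter, whereas 8 of the 14 control genes had peaks only farther away from the outermost TSS. Some of that distance comes from the TSS chosen. With every TSS listed in the RefSeq tables, 9 control genes and 30 of all 47 had a summit within 1 kb, beside 31.0% of all genes. The count within 10 kb remained 37, beside 43.9% of all genes.

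**Figure D1:**
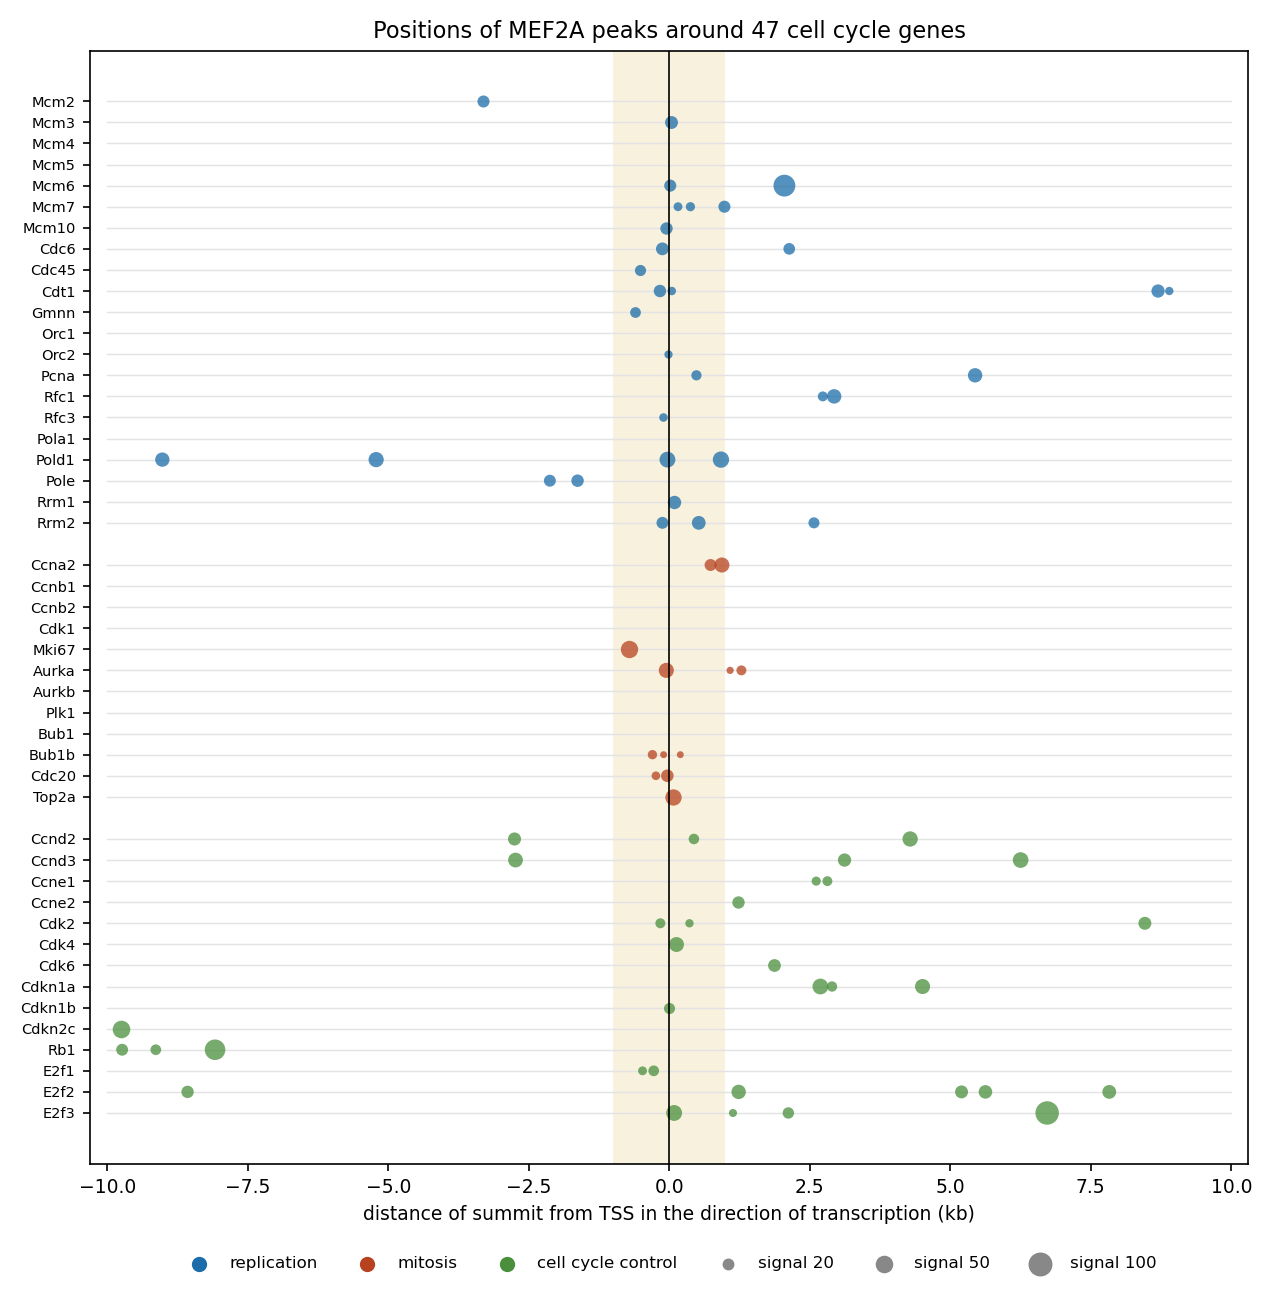
Each row is 1 of the 47 genes and each disc a peak of the optimal set, placed by the distance of its summit from the outermost TSS in kb, with disc area by the authors' signal and colour by role. Mitosis peaks sit inside the shaded 1 kb window or just beside it, control peaks are scattered over the whole 10 kb, and 10 rows are empty.

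The helicase genes Mcm2 to Mcm7 encode the ring that unwinds DNA, and their peaks were uneven. Mcm6 had the strongest peak of any replication gene within 10 kb of the outermost TSS, at chr1:128357476-128357835 on mm10, 2049 bp downstream of the TSS and inside the gene. Its pooled signal was 99.8 (rank 2617), and the matching intervals ranked 3510 in replicate 1 (signal 32.0) and 2168 in replicate 2 (signal 70.9). Both replicates thus place this peak among their stronger intervals. Mcm6 also had a promoter peak 18 bp from the TSS with signal 30.7, while the only Mcm3 peak, 28 bp from the TSS, had signal 35.0. Of 3 peaks within 1 kb of the Mcm7 TSS the strongest had signal 30.5. All lay nearer the TSS of Ap4m1, a neighbouring gene, than the outermost TSS of Mcm7. From strongest to weakest, they lay 892, 287 and 66 bp from the Ap4m1 TSS. To the nearest listed Mcm7 TSS the distances were 137, 149 and 72 bp. The single Mcm2 peak, signal 30.4, lay 3314 bp upstream and only 157 bp from the TSS of Tpra1. Mcm4 and Mcm5 had no peak of the optimal set within 10 kb.

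Licensing and firing factors had promoter peaks of moderate or low signal. Cdt1, which loads the helicase, had 4 peaks, the strongest with signal 36.8 but 8697 bp downstream at the Aprt promoter, and a promoter peak of 32.6 at 165 bp upstream. That promoter peak ranked 4562 in replicate 1 and 36067 in replicate 2, so its strength rests mainly on replicate 1. Cdc6, the other loader, had a peak of 34.2 at 122 bp upstream, and Mcm10, which helps to start synthesis, one of 32.0 at 60 bp upstream. Lower values were found 518 bp upstream of Cdc45, a helicase subunit (26.2), and 605 bp upstream of Gmnn, which encodes geminin (24.3). The weakest promoter peak among the replication genes belonged to Orc2, a subunit of the origin recognition complex, with signal 14.3 and rank 29468. Orc1, its partner, had no optimal peak.

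Among the genes of DNA synthesis, Pold1 stood out by number. Pold1, the catalytic subunit of polymerase delta, had 4 peaks with signals from 42.9 to 55.8, of which those at 920 bp downstream (55.8) and 32 bp upstream (52.7) were in the promoter window. The peak at 920 bp ranked 4005 in replicate 1 and 15070 in replicate 2, while the one at 32 bp ranked 11661 and 7134. The replicates therefore order these neighbouring peaks in opposite ways. The remaining pair lay closer to Nr1h2, 1 of them 62 bp from its TSS. Pcna, the sliding clamp, had its stronger peak (43.3) at 5442 bp, nearer to Tmem230, and a weaker one (22.1) at 484 bp. Rfc1, the large subunit of the clamp loader, had a peak of 43.7 that lay 2934 bp from the outermost TSS but 44 bp upstream of another listed TSS.

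Ribonucleotide reductase genes both had promoter peaks. Rrm2, the regulated small subunit, had 3 peaks, with 39.7 at 525 bp downstream and 29.7 at 121 bp upstream. Rrm1, the large subunit, had 1 peak of 37.7 at 85 bp, which ranked 8759 in replicate 2 but 75337 in replicate 1. Rank 75337 is far below the size of the optimal set, so the Rrm1 peak is strong in 1 replicate only. Rfc3, a small subunit of the clamp loader, had a weak peak (15.4) at 106 bp upstream with no overlapping interval in replicate 1. Pole, the catalytic subunit of polymerase epsilon, had peaks of 32.5 and 29.9 upstream, nearer to its neighbour Pxmp2. Pola1, which encodes the catalytic subunit of the primase-associated polymerase, had none.

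Each of the 6 mitosis genes with a peak had one within 1 kb. Mki67, the gene of a widely used proliferation marker, had the strongest, with signal 62.9 at 713 bp upstream and ranks of 7956 and 6620 in replicates 1 and 2. Top2a, the topoisomerase that untangles chromosomes, followed with 55.8 at 64 bp downstream and ranks of 7174 and 6965. For both genes the replicate ranks were close. Aurka, a kinase of the spindle poles, had a peak of 47.7 at 52 bp upstream, inside the neighbouring gene Cstf1. Ccna2, which encodes cyclin A, had 47.4 at 937 bp downstream. Cdc20, an activator of the anaphase-promoting complex, had 33.0 at 34 bp upstream. Bub1b, a spindle checkpoint kinase, had 3 peaks of at most 18.3.

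The other 6 mitosis genes had no optimal peak within 10 kb: Ccnb1 and Ccnb2 (cyclin B), their partner Cdk1, the mitotic kinases Plk1 and Aurkb, and the checkpoint kinase Bub1. Intervals of the relaxed lists lay within 10 kb of all 6. At Cdk1, Ccnb2, Plk1 and Bub1 the strongest was within 1 kb in both replicates, while at Aurkb it was over 5 kb away (5616 bp in replicate 1 and 6039 bp in replicate 2). At Cdk1 the strongest interval within 10 kb ranked 10349 in replicate 1 and 33767 in replicate 2. At Ccnb2 it ranked 15876 and 66672, and at Plk1 23039 and 50674. Bub1, with ranks of 27521 and 36038, is the fourth gene inside the strongest 31489 intervals of replicate 1 and outside those of replicate 2. Ccnb1 went the other way, at 103464 in replicate 1, where the interval lay 9602 bp from the TSS, and 25945 in replicate 2, at 274 bp. Counted on the strongest intervals of a single replicate, as many as the optimal set holds, 10 of 12 mitosis genes had one in replicate 1 (44.0% of all genes) and 7 of 12 in replicate 2 (43.9%). For replication genes the counts were 15 of 21 in replicate 1 and 18 of 21 in replicate 2, and for control genes 14 of 14 in both. Mitosis and replication counts thus each differed by 3 genes between the replicates, in opposite directions.

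Relaxed intervals were also present at the 4 replication genes without an optimal peak. In the pooled relaxed list the strongest interval within 10 kb ranked 10845 for Orc1, 12707 for Mcm5 and 24962 for Mcm4, all inside the size of the optimal set. Pola1, at rank 130449, was the exception. The Orc1 interval lay 3620 bp from the outermost TSS, its signal was 44.5, and it was part of the conservative set, as were the intervals of Mcm4 (26.4) and Cdk1 (26.5). The optimal set does not contain the whole conservative set: 4125 conservative peaks (14.6%) overlapped no optimal peak. When the same number of strongest pooled intervals was used in place of the optimal set, 39 of 47 genes had one (44.4% of all genes), made up of 19 replication, 7 mitosis and 13 control genes.

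Among control genes the strongest peaks within 10 kb lay away from the TSS. E2f3, an activator of S phase genes, had 4 peaks, and the strongest, also the strongest of all 47 genes within 10 kb, lay at chr13:29979160-29979519 on mm10, 6724 bp into the gene. Its signal was 115 (rank 1972), with rank 2700 in replicate 1 (signal 36.9) and 1699 in replicate 2 (signal 80.1). E2f3 also had a promoter peak of 52.9 at 87 bp, ranked 9173 and 9393, and weaker ones of 27.4 and 13.8. The intragenic peak was thus above the promoter peak in both replicates. E2f2, a close relative, had 5 peaks between 32.2 and 43.5, none within 1 kb of the outermost TSS. E2f1, the best known activator, had only a pair of weak promoter peaks (24.0 and 16.5). Among the 3 E2F genes, peak strength fell in the order E2f3, E2f2, E2f1.

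Rb1, whose protein holds E2F factors in check, had 3 peaks, between 8081 and 9734 bp upstream. The strongest, at chr14:73333852-73334211 on mm10, had signal 88.5 (rank 3286) with ranks of 4421 and 3131 in replicates 1 and 2. No peak lay within 1 kb of the Rb1 TSS. Cdkn2c, an inhibitor of CDK4 and CDK6, was counted through a peak of 65.0 at 9757 bp upstream, which is 114 bp from the TSS of Faf1 and so at another gene's promoter. Cdkn1a, the p53-responsive CDK inhibitor, had 3 peaks: that of signal 52.3 lay 2689 bp from the outermost TSS and just upstream of another listed TSS. The others had signals of 47.7 and 22.5. Cdkn1b, the related inhibitor, had 1 peak of 25.9 at 5 bp from the TSS.

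D-type cyclins and their kinases had peaks of middle strength. Ccnd3, a D-type cyclin important in B cell development, had 3 peaks with signals of 51.5, 45.8 and 37.0, and that of 45.8 sat 5 bp from the TSS of its neighbour Taf8. Ccnd2, the cyclin D induced by antigen receptor signals in B cells, had 3 peaks. Its strongest (49.1 at 4286 bp downstream) ranked 4898 in replicate 2 and had no overlapping interval in replicate 1. That of 35.8 at 2753 bp upstream was matched in both, at ranks 9050 and 26224. Cdk4 had 1 promoter peak (46.7 at 129 bp, ranks 5950 and 13155), and Cdk6 had 1 peak within 10 kb (34.3 at 1867 bp). Cdk2 had promoter peaks of 20.9 and 14.6 and a stronger one (35.3) at 8463 bp, next to Rab5b. The cyclin E genes Ccne1 and Ccne2 had their strongest peaks at 20.5 and 32.0, both beyond 1 kb. Within 10 kb the strongest peaks of Cdk2, Cdk6, Ccne1, Ccne2 and Cdkn1b thus ranked below those of Cdk4, Ccnd2 and Ccnd3.

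**Figure D2:**
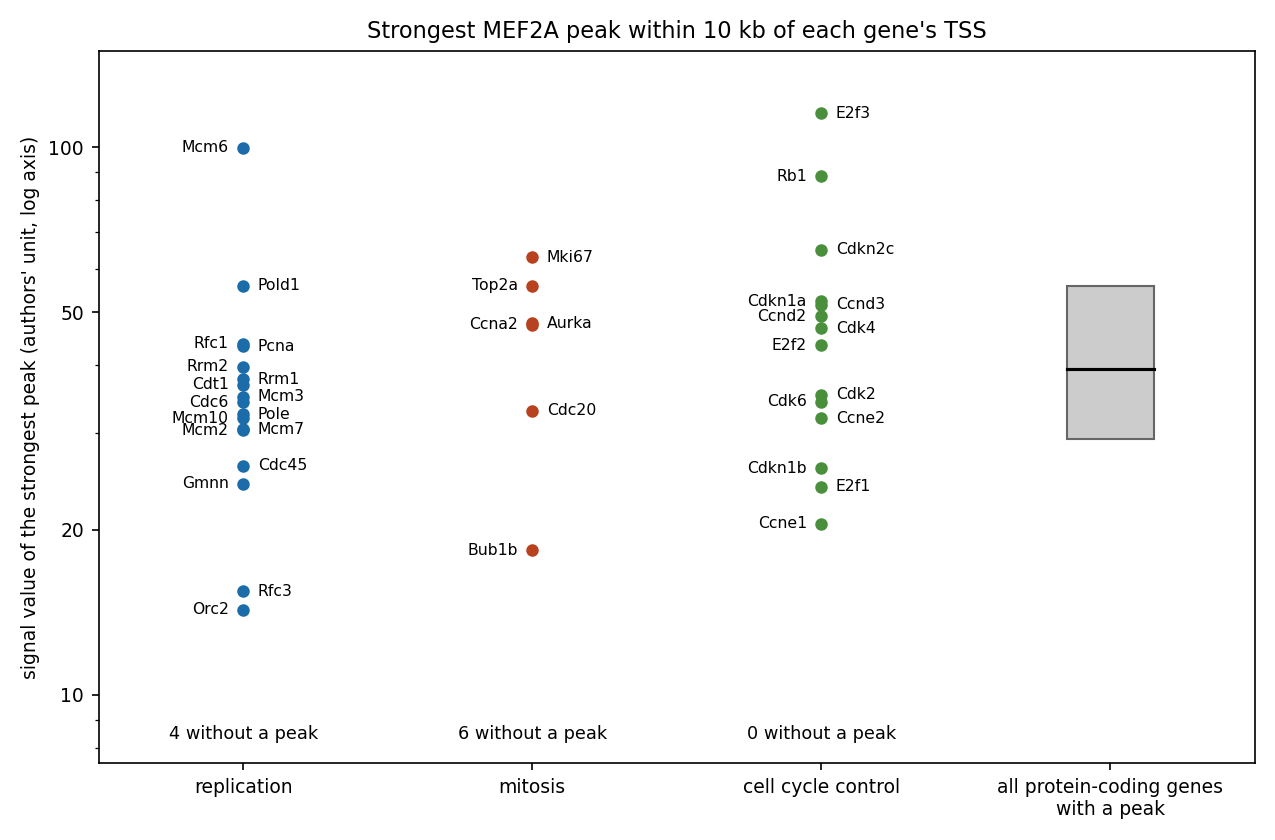
Each point is the signal (log axis) of the strongest optimal peak within 10 kb of 1 gene, by role, and the grey box spans the quartiles, with the median as a line, of all 9164 genes with a peak. E2f3, Mcm6 and Rb1 stand above the other genes, and most points fall inside or just below the grey box.

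In strength the peaks of these genes resembled peaks near genes in general. The 37 genes had 77 distinct peaks in 65 non-overlapping regions, with a median signal of 32.0, beside 32.7 for the 13240 optimal peaks within 10 kb of any TSS. By role the median was 30.6 over 32 replication peaks, 25.4 over 12 mitosis peaks and 35.2 over 33 control peaks. Taking the strongest peak per gene, the median was 36.8 for these genes and 39.3 for all genes with a peak. A higher share of genes with a peak did not come with a higher signal per peak. Judged by outermost TSSs, 61 of the 77 peaks lay nearest to the gene's own TSS, and 4 genes (Mcm2, Mcm7, Pole and Cdkn2c) had only peaks nearer to another gene.

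Replicate support was a little lower than for other peaks near genes. An overlapping interval was found in both relaxed lists for 75 of the 77 peaks (97.4%), as for 97.4% of all optimal peaks within 10 kb of a TSS. Overlap is easily met with lists this long, and where an overlap of 50% of the shorter interval was required, 63 of the 77 peaks were matched (81.8%), against 86.8% of all peaks near a TSS. Within the strongest 31489 intervals of both replicates there were 41 peaks (53.2%), against 62.2% of all peaks near a TSS. In the conservative set 52 were found (67.5%), against 75.1%. Peaks of neighbouring summits can share 1 replicate interval, so these counts are not independent.

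**Figure D3:**
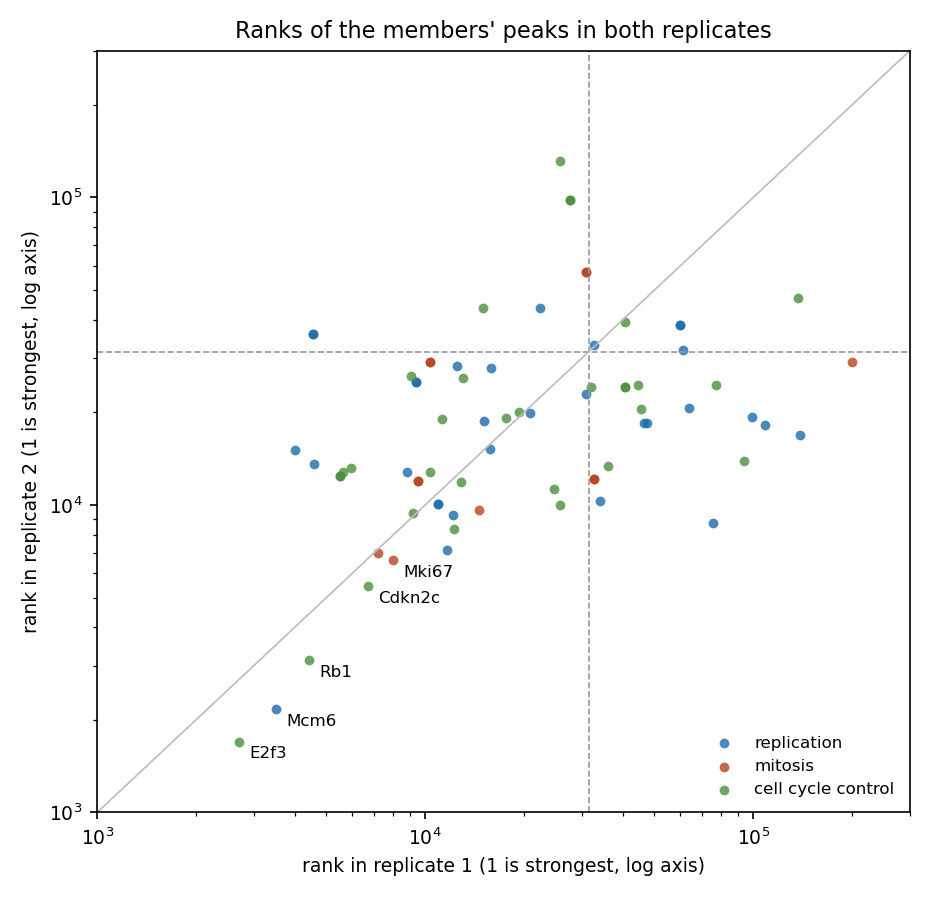
Each point is a peak of the 47 genes, placed by the rank of its strongest overlapping interval in replicate 1 (x) and replicate 2 (y), both on log axes, and coloured by role. The dashed lines mark the size of the optimal set (31489): E2f3, Mcm6, Rb1, Cdkn2c and Mki67 lie near the diagonal at the strong end, and the spread between replicates widens for weaker peaks.

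Promoters of these genes are rich in GC, and so are many promoters with a MEF2A peak, so the share was also set beside genes of like GC content. The median GC content of the 300 bases around the TSS was 59.3% for the 47 genes and 56.0% for all genes. Among other genes the share with a peak within 10 kb rose from 8.82% in the lowest decile of GC content to 59.0% in the seventh. Weighted to the GC deciles of the 47 genes, 49.6% of other genes had a peak, against the 78.7% observed. The weighted share was 48.5% for the replication genes (81.0% observed), 48.9% for the mitosis genes (50%) and 51.7% for the control genes (100%). In the optimal set the mitosis share within 10 kb thus lay next to that of other genes with like GC content, but it rests on 6 genes and was 83.3% with replicate 1 alone. Within 1 kb the weighted shares were 33.1%, 32.8% and 35.6%, beside 66.7%, 50% and 42.9% observed. The Wilson intervals of the observed shares were 45.4 to 82.8, 25.4 to 74.6 and 21.4 to 67.4. Only the replication interval thus lay above its weighted share, while those of mitosis and control contained theirs. The 47 genes were not longer than others, with a median gene length of 16072 bp against 17306.5 bp.

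**Figure D4:**
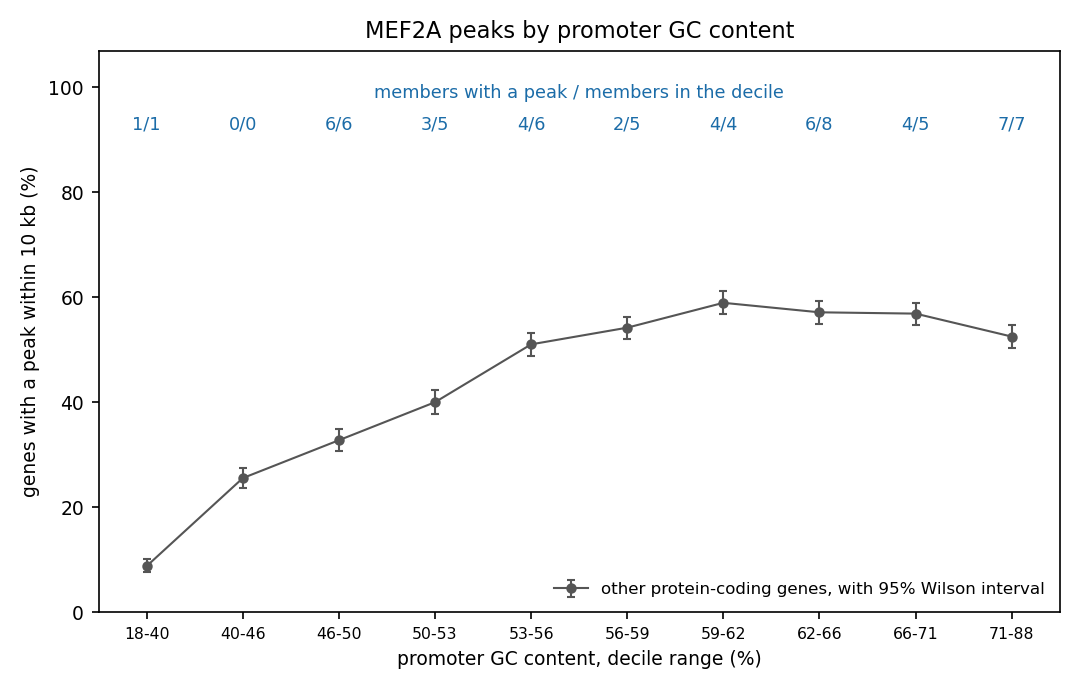
Points give the percentage of other protein-coding genes with an optimal peak within 10 kb in each decile of promoter GC content (x, range in percent), with 95% Wilson intervals. The numbers above each decile count the genes studied here with a peak out of those in the decile: all 7 in the highest decile and 6 of 6 in the third had one, but 2 of 5 in the sixth.

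Promoter sequences were compared with elements known from cell cycle genes, using the RefSeq promoter table of GRCm38.p6, which spans 250 bases before to 50 after the start of 17492 genes and holds 39 of the 47. Not matched were Mcm4, Gmnn, Pole, Ccna2, Aurkb, Ccnd2, Ccne2 and Rb1. Exact matches were sought on both strands for an E2F element in a C-rich form, TTTCCCGC, or a G-rich form, TTTGGCGC, for the CHR, TTTGAA, and for the CCAAT box, CCAAT. None of these letter strings contains another. The last 120 bases before the start in that table, which for Top2a lies slightly downstream of the outermost gene end, are shown for 5 genes that carry different sets of these elements. They run in the direction of transcription, with every match in capitals:
Mcm6, chr1:128359706-128359825, minus strand: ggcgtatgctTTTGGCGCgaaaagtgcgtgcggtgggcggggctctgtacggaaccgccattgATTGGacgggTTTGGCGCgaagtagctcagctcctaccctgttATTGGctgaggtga
E2f3, chr13:29986064-29986183, minus strand: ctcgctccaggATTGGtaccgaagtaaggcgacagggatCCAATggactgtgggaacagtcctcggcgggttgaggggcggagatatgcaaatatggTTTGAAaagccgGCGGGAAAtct
Cdc20, chr4:118437344-118437463, minus strand: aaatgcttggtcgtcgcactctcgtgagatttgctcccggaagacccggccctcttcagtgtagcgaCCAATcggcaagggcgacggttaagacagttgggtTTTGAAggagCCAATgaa
Top2a, chr11:99024190-99024309, minus strand: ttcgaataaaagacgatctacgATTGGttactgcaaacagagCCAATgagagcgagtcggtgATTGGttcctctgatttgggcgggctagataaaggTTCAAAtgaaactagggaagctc
Cdk1, chr10:69352913-69353032, minus strand: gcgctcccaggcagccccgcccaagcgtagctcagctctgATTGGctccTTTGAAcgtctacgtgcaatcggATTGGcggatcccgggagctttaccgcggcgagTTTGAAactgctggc
Mcm6 has 2 G-rich E2F matches among CCAAT boxes. E2f3 has an E2F match close behind a CHR, while Cdc20, Top2a and Cdk1 have a CHR and no E2F match in these bases.

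In these promoter windows the elements divided the genes by role. The windows follow the starts of the promoter table, which for several genes, among them E2f1, Cdc6, Cdk6, Aurka and Mki67, lie downstream of the outermost TSS. Rrm2 and Top2a had a C-rich E2F match at mm9 summits 27 and 60 bp from a TSS, but none in these windows. The counts by role, with that for mitosis, thus depend on where the windows lie. An E2F match of either form was in 12 of 39 promoters (30.8%), against 2.10% of all 17492. It was in 9 of 18 replication promoters (Mcm3, Mcm5, Mcm6, Mcm7, Cdc6, Cdt1, Rfc3, Pold1 and Pola1), in 3 of 11 control promoters (Cdk2, E2f2 and E2f3) and in 0 of 10 mitosis promoters. The CHR was in 8 of 10 mitosis promoters, in 2 of 18 replication promoters and 1 of 11 control promoters, and in 16.5% of all. CCAAT boxes were in 10 of 10 mitosis promoters, 15 of 18 replication promoters and 4 of 11 control promoters, against 39.2% of all. The MEF2 consensus element matched in 2 of 39, Cdkn1b and Ccnb2, against 2.94% of all.

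MEF2A peaks were found near promoters with and without these elements. Of the 12 promoters with an E2F match, 10 had a peak within 10 kb, and of the 27 without a match, 21 had one. The 2 genes with an E2F match and no peak were Mcm5 and Pola1. All 7 promoters with the C-rich form had a peak, as did 4 of 6 with the G-rich form. With a CHR 8 of 11 genes had a peak, and without one 23 of 28. Among mitosis genes alone, 5 of 8 with a CHR had a peak, and neither of the 2 without (Bub1 and Ccnb1) did. The shares with and without each element differ by few genes.

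**Figure D5:**
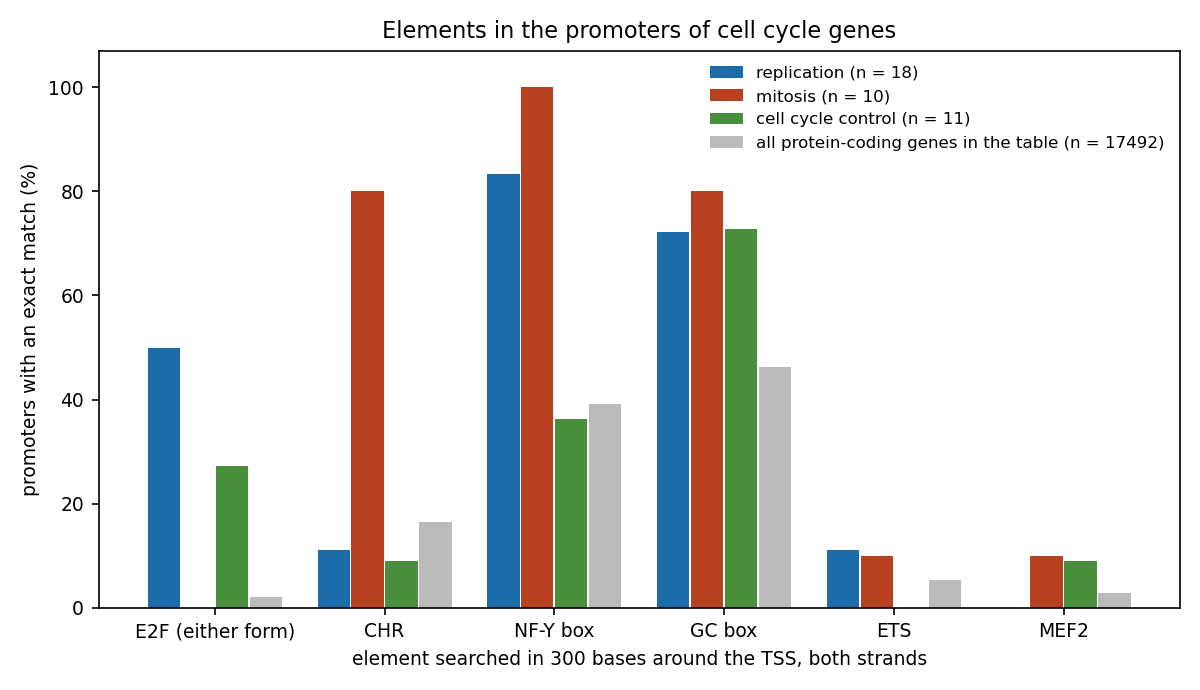
Bars give the percentage of promoters with an exact match on either strand, by role and for all genes of the table. A promoter is the 300 bases around the start in the RefSeq promoter table, and the NF-Y box is the CCAAT box. E2F matches are at 50% of replication promoters and 0% of mitosis promoters, CHR matches at 80.0% of mitosis promoters, and MEF2 matches at 10% or less in each role.

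On mm9, where the genome sequence was at hand, fewer genes were counted. Using all protein-coding transcripts of GENCODE vM1, 22 of the 47 genes had a summit of the mm9 list within 10 kb (29.7% of all genes), namely 9 of 21 replication, 5 of 12 mitosis and 8 of 14 control genes. Within 1 kb there were 14 of 47 (17.6% of all genes). Both builds gave a peak for 21 genes, mm10 alone for 16, mm9 alone for Orc1, and neither for 9. At Orc1 the mm9 summit (rank 8051) lay 210 bp upstream of the TSS and nearest to Prpf38a. For Mcm7 and Bub1b the mm9 summit was a different one, 9589 bp (at Cops6) and 9063 bp away. The 16 genes counted on mm10 alone were Mcm2, Mcm3, Mcm10, Cdc6, Cdc45, Gmnn, Orc2, Rfc3, Pole, Aurka, Ccne1, Ccne2, Cdk2, Cdk6, Cdkn1b and E2f1. Within 10 kb none of these 16 genes had an mm10 peak with signal above 47.7, that of Aurka.

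At the strong end the mm9 list kept the mm10 order of E2f3, Mcm6 and Rb1, but put Rfc1 above them. Rfc1 led, with signal 196 (rank 1302) at an intronic summit 9211 bp from the nearest transcript start. On mm10 a peak of 145 inside Rfc1 (rank 1237, ranks 1127 and 1480 in replicates 1 and 2) lay 12264 bp from the outermost TSS and so outside the mm10 window. Whether it is the same site was not established, as coordinates were not converted. Intronic summits of E2f3 (174, rank 1607) and Mcm6 (154, rank 1957) and the summit 8210 bp upstream of Rb1 (104, rank 3673) came next. Mki67 followed with 78.9 (rank 5745) at 777 bp upstream. Below it the lists differed. Next on mm9 were Cdkn1a (72.0), Bub1b (69.7) and Mcm7 (65.5). Their strongest mm10 peaks within 10 kb had signals of 52.3, 18.3 and 30.5.

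Sequence at the summits shows what the strongest of these peaks contain. The bases from 50 before to 50 after the mm9 summits of Rfc1, E2f3, Mcm6, Rb1 and Mki67 are given on the plus strand. Capitals mark a MEF2 consensus match or an AP-1 match (TGANTCA, bound by JUN and FOS):
Rfc1, chr5:65717542-65717642, plus strand: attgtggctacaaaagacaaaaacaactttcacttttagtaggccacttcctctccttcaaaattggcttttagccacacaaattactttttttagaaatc
E2f3, chr13:30071148-30071248, plus strand: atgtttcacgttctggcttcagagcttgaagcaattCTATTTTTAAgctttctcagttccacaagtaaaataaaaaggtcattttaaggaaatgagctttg
Mcm6, chr1:130254183-130254283, plus strand: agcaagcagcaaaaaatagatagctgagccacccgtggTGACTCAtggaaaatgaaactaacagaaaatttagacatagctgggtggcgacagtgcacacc
Rb1, chr14:73733789-73733889, plus strand: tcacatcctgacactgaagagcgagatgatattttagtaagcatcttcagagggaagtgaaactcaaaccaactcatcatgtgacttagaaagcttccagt
Mki67, chr7:142908789-142908889, plus strand: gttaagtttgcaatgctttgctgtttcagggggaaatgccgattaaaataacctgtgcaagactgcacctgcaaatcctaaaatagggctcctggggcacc
The E2f3 window holds the only MEF2 consensus match, CTATTTTTAA at chr13:30071184-30071193 on mm9, which starts 14 bp from the summit. Mcm6 has an AP-1 match that starts 12 bp from its summit. In the Rfc1, Rb1 and Mki67 windows neither of these elements matched exactly, which says only that those letters are not there. The Rfc1 and E2f3 windows were the most AT-rich, with 33.7% GC each, against a median of 56.9% over the windows of all 32 peaks.

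Over those 32 mm9 peaks, the MEF2 element was about as scarce as at other peaks near genes, and E2F elements were more frequent. The MEF2 consensus was in 1 of 32 windows (3.13%), against 5.499% of all 7365 mm9 peaks within 10 kb of a TSS, and its symmetric form, which the consensus includes, in 0 of 32, against 2.92%. The C-rich E2F form was in 3 windows (9.38%, against 0.421%): TTTCCCGC at Pold1 and Rrm2 and its reverse complement GCGGGAAA at Top2a, at summits no more than 60 bp from the TSS. The G-rich form was in 1 (3.13%, against 0.163%), at the Faf1 promoter counted for Cdkn2c. AP-1 matches were in 3 (9.38%, against 8.17%), at Mcm6, Pold1 and Ccnd3. An ETS element (CCGGAAGT) matched at 1 peak, that counted for Pold1 beside Nr1h2, with 3 copies. The octamer (ATGCAAAT) matched once, 5 bp from a summit in E2f2, and a RUNX element (TGTGGTT) once, in Ccnd3. CCAAT boxes were in 5 windows (15.6%, against 9.60%), the CHR in 2 (6.25%, against 6.04%) and the GC box (GGGCGG) in 7 (21.9%, against 15.4%). With 32 windows each match adds 3.13 percentage points, so most of these shares rest on 1 to 3 peaks.

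The other genes of these pathways had peaks as follows. Of 109 further genes of replication, mitosis and control listed for comparison, 81 had a peak within 10 kb (74.3%, interval 65.4 to 81.6), beside 42.7% of all genes. By role the counts were 38 of 42 for replication, 26 of 40 for mitosis and 17 of 27 for control. Within 1 kb 75 did, beside 28.4% of all genes, among them all 26 mitosis genes with a peak and 15 of the 17 control genes. Unlike in the 47 genes, the control share of this longer list (63.0%) was close to its mitosis share (65.0%), and the difference between the lists was not tested. The strongest were Ccng2, an atypical cyclin of non-dividing cells (180, rank 780, 1982 bp upstream), Nuf2, a kinetochore subunit (138, 97 bp upstream), Rnaseh2a, a subunit of the enzyme that removes ribonucleotides from DNA (130, though nearest to Junb), Mad2l1, a spindle checkpoint gene (117, 201 bp downstream), and Tk1, thymidine kinase (104, 2384 bp upstream).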

How the data were processed

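MEF2A ChIP-seq was done on 2 biological replicates of CH12.LX cells. The 6 peak lists used, 5 on mm10 and 1 on mm9, were made by the authors. Per the file headers and deposited notes, relaxed lists were called for each replicate and their pool with a control, and the optimal and conservative sets derive from them. Signal was taken unchanged from the authors' deposited peak lists. The score columns were deposited by the authors and served only to break ties. The sources used here do not give the peak caller or the aligner.

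TSSs on mm10 came from RefSeq GRCm38.p6, with strand from its promoter table (17492 genes) or GENCODE vM1 (3994), and on mm9 from GENCODE vM1 with NCBIM37 sequence. No coordinates were converted between builds. Overlap meant 1 bp or more. GC content was taken over mm9 bases from 250 before to 50 after the TSS, in 10 bins. With 1 group no test was made, and results are counts beside all genes. Named in full were the 10 genes with the strongest peaks, those with a peak within 1 kb and those where builds differ. The genes and lists were chosen with earlier results of these data known. Counting was tested on simulated data. Python 3.11.15, numpy 2.4.6, pandas 2.3.3, scipy 1.17.1, pysam 0.24.0 and matplotlib 3.10.9 were used.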

Additional observations from a re-analysis of the deposited data

How the results depend on the processing

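No paired analysis was possible because the 2 replicates form 1 group and no result comes from a test. In place of 37 genes within 10 kb, 44 were counted within 50 kb (66.6% of all genes) and 26 within 1 kb (28.4%). The conservative set gave 33 (39.7%), and each peak assigned to its nearest TSS at any distance gave 34 (49.6%). Replicate 1 alone gave 39 (44.0%) and replicate 2 alone 39 (43.9%). All listed TSSs gave 37 (43.9%) and the strongest pooled intervals 39 (44.4%). With the stronger 50% of the optimal set the count fell to 21 within 10 kb (25.5% of all genes) and 10 within 1 kb (14.2%). By role it fell to 8 replication and 9 control genes within 10 kb. On mm9 it was 22 (29.7%) with all transcripts and 20 (27.8%) with the outermost TSS, and within 1 kb 14 (17.6%) and 12 (16.0%). The replication count was 9 and 8 on mm9, and the control count 8 and 8. Mitosis genes numbered 10 within 50 kb, against 66.6% of all genes, and 7 to 10 without 1 replicate. Control genes numbered 6 within 1 kb. Within 1 kb replicate 2 alone gave 25 genes (28.9% of all genes) and replicate 1 alone gave 28 (30.0%). Within 10 kb each replicate alone gave 15 to 18 replication genes and 14 control genes. In 11 of 11 alternatives a peak was found for 11 genes (Mcm6, Cdt1, Pcna, Pold1, Rrm2, Ccna2, Mki67, Top2a, Ccnd2, Cdk4 and E2f3), and Pola1 had none in any. Using all listed TSSs and the strongest pooled intervals were choices made after seeing the data. With 5 or 20 bins of GC content in place of 10, the weighted share of other genes was 50% and 49.8%. Windows of 100 bp to either side of the summit gave 1 MEF2 match and 3 C-rich E2F matches in 32. Read depth is unknown, so a gene without a peak may lie below what these lists detect.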

Other observations

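Beyond 10 kb, several of these genes had peaks stronger than any near their TSS. Cdk6, the kinase partner of D-type cyclins, is 190005 bp long and held 15 optimal peaks inside the gene beyond the window, with signals from 26.7 to 322 and a median of 41.6. The strongest, at chr5:3501696-3501972 on mm10 and 160832 bp from the TSS, ranked 105 in the optimal set, 135 in replicate 1 and 106 in replicate 2. Though inside Cdk6, this peak lay nearer to the TSS of Fam133b, at 41997 bp. The single Cdk6 peak within 10 kb had signal 34.3. Of the 15 beyond the window, 11 were above the median signal of all optimal peaks. Cdkn1a had a peak of 192 (rank 656, ranks 685 and 640) at 11941 bp upstream, just past the window, and its own TSS was the nearest. Peaks of 81.6 at 18859 bp downstream of Ccne1 and 81.4 at 10851 bp upstream of Ccnd2 were likewise nearest to their own gene.

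For some other genes, as for Cdk6, a strong distal peak was nearer to a neighbour. A peak of 258 (rank 285) lay 43232 bp upstream of Ccne2 and closer to Trp53inp1. One of 154 (rank 1083) lay 49043 bp upstream of E2f2 and closer to Id3, and one of 150 (rank 1156) lay 31427 bp downstream of Pcna and closer to Tmem230. Mcm4, without a peak within 10 kb, had one of 110 (rank 2144, ranks 1707 and 2855) at 16959 bp upstream and 16915 bp from the TSS of Prkdc, which starts beside it. Aurkb, also without a near peak, had 14 peaks within 50 kb, the strongest of 96.4 at 27795 bp downstream near Tmem107. Which gene, if any, such distal peaks act on cannot be read from peak positions.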
